A study of Mus musculus with 6 samples.

Results

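OT-I CD8+ T cells that had been cultured with TANs were compared directly with OT-I CD8+ T cells that had been cultured with TAMos, across all genes of the deposited expression table. The comparison used 4 of the 6 libraries of the study, 2 per co-culture, and the 10639 of 25638 genes that reached at least 1 FPKM in at least 2 of these 4 libraries. OT-I cells are mouse T cells with a transgenic receptor for an ovalbumin peptide presented on MHC class I, and their genotype is otherwise labelled WT. In the TAN group the T cells were kept for 48 hours with TANs, sorted as CD11b+Ly6G+Ly6Clow cells, and in the TAMo group for the same time with TAMos, sorted as CD11b+Ly6G-Ly6Chigh cells. Both myeloid populations came from the spleens of mice that bore LLC (Lewis lung carcinoma) tumours, so neither was taken from the tumour itself. A vehicle group of 2 libraries received no myeloid cells. All 3 groups were given the OVA257-264 peptide, so that every library comes from stimulated T cells, and the T cells were purified again before RNA extraction. The question set by the design is how the transcriptome of antigen-stimulated CD8+ T cells differs after contact with one or the other myeloid population. Nothing in the labels tells whether replicate libraries are independent cultures or mice, so the p-values below measure only the spread between these libraries, which may be technical.

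A CD8+ T cell that meets its peptide grows, enters the cell cycle and divides several times within a few days. It makes cytotoxic granules with perforin and granzymes, secretes interferon-gamma, and shuts down the receptors that hold naive cells in lymph nodes. Division needs new DNA, ribosomes, lipids and mitochondria, and it can be held back by cyclin-dependent kinase inhibitors such as p21, the product of Cdkn1a, which is a classical target of the transcription factor p53.

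Expression is given as FPKM, a read count scaled by gene length and by library size. Each value is relative to the counted reads of its library and is not an amount per cell. Summed over all genes, FPKM came to 628881 and 628328 in the TAN libraries and 546324 and 548039 in the TAMo libraries. A value is therefore not a share of one fixed total. The steps between low values correspond to 41.6 to 45.1 M counted reads per library, and the 4 libraries compared had between 10164 and 10198 genes at 1 FPKM or more. Before the comparison, 1 library stood apart in its low values: even numbers made up 98.8% of the low read counts of TAMo replicate 1 and between 60.5% and 63.8% elsewhere, so the depth of that library is uncertain. The median gap between the 2 replicates of a group was 0.052 on the log2(FPKM + 1) scale with TAN and 0.061 with TAMo, and 40 and 142 genes, respectively, had a gap over 0.5. The pseudogene Rps12-ps3 had the widest gap with TAMo (2.402 and 492 FPKM, against 512 and 528 with TAN). Pearson correlations across genes between replicates were 0.998 with TAN and 0.996 with TAMo.

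The 2 co-cultures differed in most expressed genes. With limma on log2(FPKM + 1), 4308 genes (40.5% of those tested) were higher with TAN and 4934 (46.4%) were higher with TAMo at a Benjamini-Hochberg adjusted p under 0.05. In total 9242 genes, or 86.9%, passed in one direction or the other, so a passed test alone says little about any gene list. A list divided between the sides is likewise no result about that list, because all tested genes were divided. A difference of at least 1 on the log2 scale, which is 2-fold for genes well above 1 FPKM, was reached by 1525 genes (14.3%) on the TAN side and 1603 genes (15.1%) on the TAMo side. Differences ran from -7.34 to 5.87, with a median of -0.07 and quartiles of -0.67 and 0.58, where negative values are higher with TAMo. Large differences were more often on the TAN side: 485 genes against 346 reached 2, and 67 against 29 reached 4. The first principal component of the 4 libraries carried 98.3% of their variance. Leaving out TAMo replicate 1 gave 4253 and 4786 calls.

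**Figure D1:**
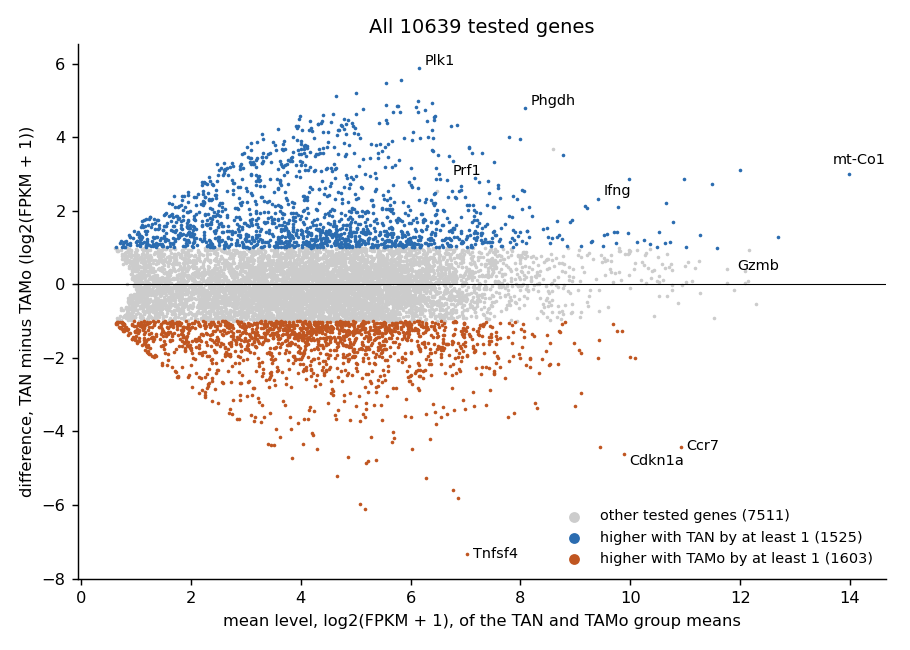
Difference between the co-cultures, TAN minus TAMo on the log2(FPKM + 1) scale, against the mean level for each of the 10639 tested genes. Blue points are the 1525 genes higher with TAN by at least 1 and passing the test, orange points are the 1603 genes higher with TAMo, and the extremes are Plk1 at 5.87 and Tnfsf4 at -7.34.

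In the same fit, 2161 genes (20.3%) passed the test between TAN and vehicle and 9214 (86.6%) between TAMo and vehicle. Both contrasts use the same 2 vehicle libraries. The levels of named genes below are therefore given with vehicle beside them, where that helps to place the 2 co-cultures.

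Cell cycle genes formed the upper end of the distribution. Plk1, the kinase that drives entry into and passage through mitosis, had the largest difference of all genes on the TAN side: it stood at 141 and 138 FPKM with TAN and at 1.21 and 1.602 FPKM with TAMo, with 145 and 133 FPKM in the vehicle libraries. The mean was 99.3-fold higher with TAN, a difference of 5.87 ± 0.077 (standard error) on the log2 scale (limma, adjusted p = 1.23e-09). Plk1 lies on chromosome 7, from 122159439 to 122169873 on the plus strand of GRCm38. Ccnb1, the mitotic cyclin, was at 108 and 112 FPKM with TAN and 1.296 and 1.44 FPKM with TAMo. Cdk1, its kinase partner, was at 62.7 and 60.8 FPKM with TAN and 0.606 and 0.785 FPKM with TAMo. Espl1, the separase that cuts sister chromatids apart, was at 91.2 and 89.6 FPKM and 0.984 and 1.09 FPKM. Mki67, the proliferation marker, was at 160.1 and 162 FPKM with TAN, 4.12 and 4.58 FPKM with TAMo and 159 and 158 FPKM with vehicle. In each of these genes the TAN libraries were near the vehicle level. That both TAMo libraries lay below both TAN libraries was required of the 12 largest, and groups did not overlap for 93.1% of all tested genes. Others among the 12 largest on this side were Cdca8 of the chromosomal passenger complex (4.98), the ubiquitin-conjugating enzyme Ube2c (4.84) and the kinesin Kif22 (4.83).

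All 53 members of the mitosis list were tested and all 53 were higher with TAN, 52 of them by at least 1, with a median of 3.87 against -0.07 for all tested genes. The exception in size was Pttg1, the securin gene, which was at 21.3 and 20.9 FPKM with TAN and 16.05 and 16.5 FPKM with TAMo, a difference of 0.35 ± 0.042. All 44 members of the DNA replication list were also higher with TAN, each by at least 1, with a median of 3.53. Cdt1, which loads the replicative helicase at origins, was at 90.4 and 88.4 FPKM with TAN and 1.92 and 2.28 FPKM with TAMo. Mcm2, a subunit of that helicase, was at 219.5 and 214 FPKM with TAN and 9.98 and 9.59 FPKM with TAMo. Tk1, the thymidine kinase, was at 108 and 98.4 FPKM with TAN and 2.54 and 2.699 FPKM with TAMo. Rrm1 and Rrm2, the subunits of ribonucleotide reductase, had differences of 3.70 and 3.56. Summed over its members, the replication list held 0.703% of all FPKM in both TAN libraries and 0.0605% and 0.0621% in the TAMo libraries. In bulk RNA, fewer dividing cells and less of these transcripts per cell cannot be told apart.

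The promoter windows of 3 leading cell cycle genes are shown because these genes moved together and carry letters that were searched for in all windows. Each window runs from 250 bases before to 50 bases after a RefSeq start of the gene (GRCm38.p6), 5′ to 3′ on the strand of the gene. A gene can have more than 1 entry, with different starts. It was counted if any entry held the letters, and the window shown was picked from the entries that did. Capitals mark the cell cycle homology region, TTTGAA, in Plk1 (chr7:122159185-122159484, plus strand) and Cdk1 (chr10:69352863-69353162, minus strand), and an E2F site, TTTGGCG, in Cdt1 (chr8:122567765-122568064, plus strand).
Plk1: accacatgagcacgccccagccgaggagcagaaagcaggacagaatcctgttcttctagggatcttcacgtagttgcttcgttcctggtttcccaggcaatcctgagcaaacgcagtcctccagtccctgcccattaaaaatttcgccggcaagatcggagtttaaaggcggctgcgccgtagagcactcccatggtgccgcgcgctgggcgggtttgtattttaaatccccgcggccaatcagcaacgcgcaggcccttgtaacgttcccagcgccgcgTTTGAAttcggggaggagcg
Cdk1: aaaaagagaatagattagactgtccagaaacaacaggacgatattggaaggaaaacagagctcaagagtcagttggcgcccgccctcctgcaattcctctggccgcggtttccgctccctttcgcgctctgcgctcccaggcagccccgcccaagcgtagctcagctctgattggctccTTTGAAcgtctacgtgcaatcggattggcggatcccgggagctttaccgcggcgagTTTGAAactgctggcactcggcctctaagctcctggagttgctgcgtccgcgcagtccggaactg
Cdt1: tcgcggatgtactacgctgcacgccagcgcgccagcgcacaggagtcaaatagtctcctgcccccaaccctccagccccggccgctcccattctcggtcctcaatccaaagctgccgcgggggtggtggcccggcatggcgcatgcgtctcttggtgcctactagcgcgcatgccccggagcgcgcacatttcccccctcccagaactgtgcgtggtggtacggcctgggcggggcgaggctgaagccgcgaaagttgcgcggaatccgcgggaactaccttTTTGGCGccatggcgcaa
The Plk1 window holds 1 match that begins 31 bases after the start, the Cdk1 window holds 2 that begin 71 and 15 bases before it, and the Cdt1 match begins 33 bases after it. Of the 10639 tested genes, 8306 had a promoter entry. Letters of the cell cycle homology region, read on both strands, were found in 14.1% of these, in 65.9% of the 44 mitosis genes with an entry, and in 16.7% of the 36 replication genes with an entry. E2F letters, TTTGGCG or TTTCCCG on both strands, were found in 10.1% of all tested genes, 13.6% of the mitosis genes and 52.8% of the replication genes. Over the 1153 genes with an entry that were higher with TAN by at least 1, the shares were 19.9% and 15.2%, and over the 1239 on the TAMo side they were 14.2% and 7.34%. Among all 27025 genes with an entry, tested or not, 20.2% held the cell cycle homology region and 5.55% an E2F site. A match describes the letters in the window and is not a measured binding site. Likewise, the share of a list describes its members and is not a result of the difference between the co-cultures.

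**Figure D2:**
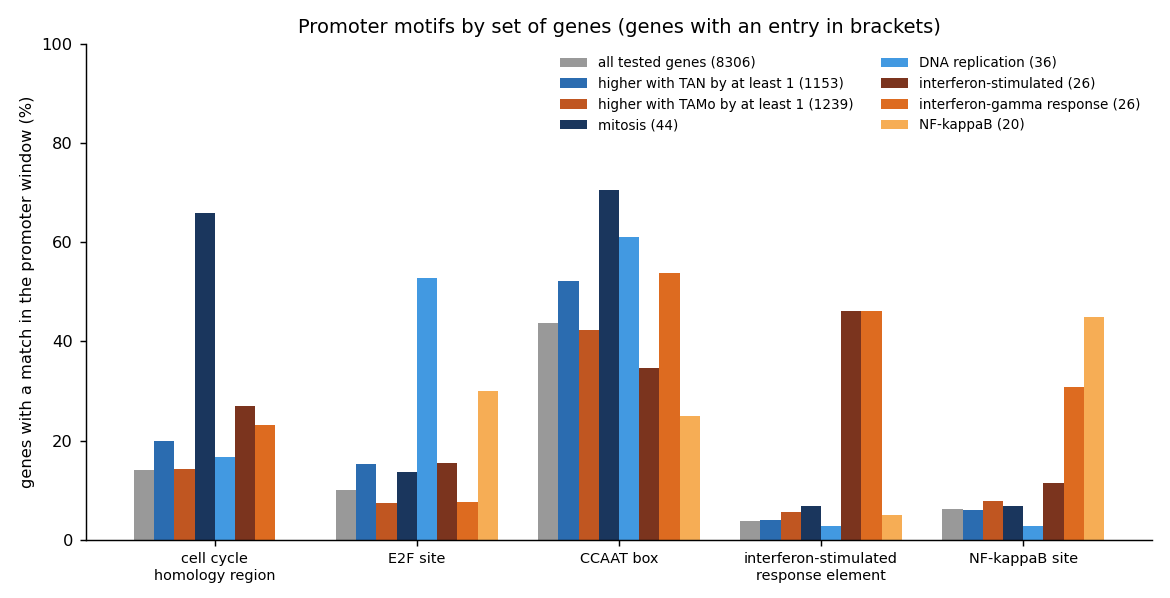
Percentage of genes whose 300-base promoter window holds each motif, by set of genes, with the number of genes that have an entry in brackets. The mitosis list stands at 65.9% for the cell cycle homology region and the DNA replication list at 52.8% for the E2F site, against 14.1% and 10.1% of all tested genes.

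Upstream of these lists, the G1 regulators were split. Of 29 tested members of the list of CDK inhibitors and G1 cyclins (33 listed), 16 were higher with TAN and 11 with TAMo. Ccne1, the cyclin that opens S phase, was at 132 and 138 FPKM with TAN and 7.34 and 7.72 FPKM with TAMo. E2f1 and E2f2, activating members of the E2F family, differed by 3.21 and 3.94. On the other side were the pocket proteins that restrain E2F, Rb1 (-2.17) and Rbl2 (-2.46). Ccnd2, a D-type cyclin, was higher with TAMo, at 1081 and 1094 FPKM against 268 and 273 FPKM with TAN. The largest difference in the list was that of Cdkn1a, which encodes p21: it was at 73.9 and 71.2 FPKM with TAN, 1820.1 and 1803 FPKM with TAMo and 53.6 and 52.8 FPKM with vehicle. The TAMo mean was 24.97-fold that of TAN, a difference of -4.62 ± 0.028 (limma, adjusted p = 1.64e-10).

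**Figure D3:**
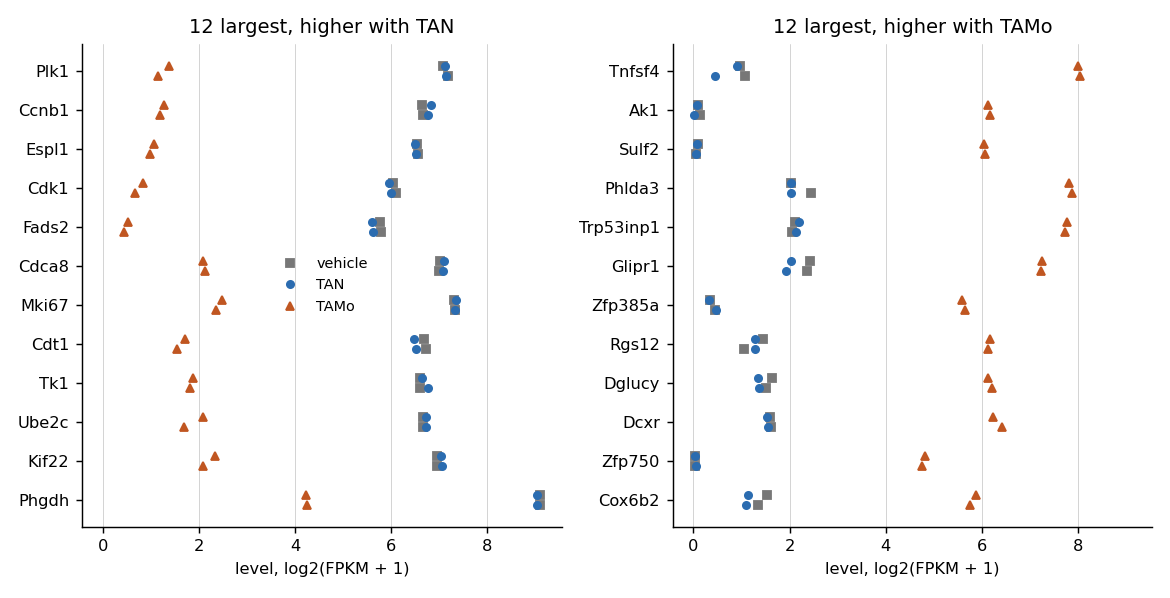
Level in each of the 6 libraries, as log2(FPKM + 1), of the 12 genes with the largest difference in each direction. In the left panel the TAN and vehicle points lie together above both TAMo points, from Plk1 to Phgdh, and in the right panel both TAMo points lie above the rest, from Tnfsf4 to Cox6b2.

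Genes known as p53 targets were 6 of the 12 with the largest difference at the opposite end. Of 46 listed, 44 were in the table and 42 were tested: 38 were higher with TAMo, 33 of them by at least 1, and 3 were higher with TAN, with a median of -2.57. Ak1, an adenylate kinase, was nearly absent with TAN (0.01601 and 0.0481 FPKM) and stood at 71.3 and 69.1 FPKM with TAMo. Sulf2, an extracellular sulfatase, went from 0.0411 and 0.0576 FPKM with TAN to 65.7 and 65.05 FPKM with TAMo. Phlda3, an inhibitor of Akt, was at 3.07 and 3.08 FPKM with TAN and 233 and 222 FPKM with TAMo. Trp53inp1, a p53-induced nuclear protein, was at 3.36 and 3.61 FPKM with TAN and 211 and 218 FPKM with TAMo. For all 4 the vehicle libraries were at or below 4.42 FPKM. Their TAN and TAMo libraries did not overlap, but this held for 93.1% of all tested genes and was required of the 12 largest. Mdm2, the ubiquitin ligase that limits p53, and Ccng1, cyclin G1, were at 305 and 294 FPKM and 433 and 429 FPKM with TAMo, against 30.01 and 29.9 FPKM and 36.6 and 38.1 FPKM with TAN. The death-promoting members Bbc3 (-2.87), Fas (-4.19) and Bax (-1.53) were also higher with TAMo. The 3 members higher with TAN were Ddb2 (2.05), a nucleotide excision repair factor, Ckap2 (2.38), a spindle protein, and Plk3 (0.36). Tigar did not pass the test (0.04, 95% interval -0.08 to 0.17). The transcript of p53 itself, Trp53, was at 90.8 and 94.1 FPKM with TAN and 101 and 104 FPKM with TAMo, a difference of -0.15 ± 0.032.

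Some genes outside that list were also far on the TAMo side. Tnfsf4, the ligand known as OX40L, had the largest difference of all genes in either direction: 0.363 and 0.873 FPKM with TAN, 1.09 and 0.972 FPKM with vehicle and 262 and 255 FPKM with TAMo, a difference of -7.34 ± 0.13 (limma, adjusted p = 4.35e-09). It spans positions 161395409 to 161418410 on chromosome 1 (plus strand). Glipr1 was at 2.81 and 3.06 FPKM with TAN and 149 and 151 FPKM with TAMo. Serpine2, a protease inhibitor, was among the most abundant genes that differed, at 61.2 and 59.6 FPKM with TAN and 1333 and 1318 FPKM with TAMo.

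Of 33 p53 targets with a promoter entry, Cdkn1a was the 1 in which letters of a p53 element were found. The search was for 2 exact copies of the short consensus RRRCWWGYYY with a spacer of 0 to 13 bases, on both strands. R is A or G, W is A or T and Y is C or T. A copy with any mismatch was not accepted. Among all 8306 tested genes with an entry, 4 held such an element. Capitals mark the match in chr17:29090729-29091028 (plus strand, GRCm38.p6), where it begins 73 bases before the RefSeq start of that entry. The entry was picked because it held the match, and the distance to other starts of Cdkn1a was not examined. The 2 copies are GGACTAGCTT and GAACATGTCT, with the spacer also in capitals. The bases that follow, tgacatgttc, differ from the consensus in the first base, so they are not marked.
Cdkn1a: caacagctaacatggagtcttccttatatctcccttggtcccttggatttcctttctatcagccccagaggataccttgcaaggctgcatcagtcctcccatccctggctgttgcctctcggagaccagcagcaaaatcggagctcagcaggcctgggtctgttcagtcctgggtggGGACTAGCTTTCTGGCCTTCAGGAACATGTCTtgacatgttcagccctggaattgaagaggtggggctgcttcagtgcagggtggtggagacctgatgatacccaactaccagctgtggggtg
The other 32 genes held no match, which says only that no exact match lies in the 300-base windows of their entries.

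Genes of DNA repair and chromatin followed the replication list with few exceptions. Of 33 tested members of the list of homologous recombination, Fanconi and damage checkpoint genes, 30 were higher with TAN and 2 with TAMo, with a median of 2.57. Clspn, an adaptor of the replication checkpoint, was at 54.5 and 53.9 FPKM with TAN and 1.47 and 1.53 FPKM with TAMo. The exceptions were Chek2 (-0.23) and Mus81 (-0.16). Mus81 was not called under trimmed mean scaling (limma, adjusted p = 0.184) or quantile normalisation (limma, adjusted p = 0.0765). The same held with no filter on low values (limma, adjusted p = 0.0514). Without TAMo replicate 1 its difference was -0.14, and without TAN replicate 1 it was -0.09. Atm was not called (0.05). Of 54 clustered histone genes, 45 were tested, 40 were higher with TAN and 4 with TAMo, with a median of 1.78. Hist1h3c was at 29.1 and 28.7 FPKM with TAN and 0.0724 and 0.609 FPKM with TAMo. In the opposite direction Hist1h1c, a linker histone, was at 14.7 and 12.1 FPKM with TAN and 176 and 169 FPKM with TAMo, and Hist1h2bc at 3.18 and 3.44 FPKM and 36.8 and 54.7 FPKM. Most replication-dependent histone transcripts end without a poly(A) tail, histone genes have near-identical copies, and how shared reads were assigned is not given, so single histone values are uncertain.

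Transcripts of the mitochondrial genome were lower with TAMo as a block. All 13 that were in the table were higher with TAN by at least 1, with a median of 2.87. mt-Co1, a subunit of cytochrome oxidase, was at 28587 and 29140.3 FPKM with TAN and 3341 and 3845 FPKM with TAMo. mt-Nd6, the only one of the 13 on the light strand, was at 1393 and 1441 FPKM with TAN and 331 and 331 FPKM with TAMo, the smallest difference of the 13 (2.10). Together they took 8.07% and 8.21% of all FPKM in the TAN libraries, 8.15% and 8.34% with vehicle, but 1.20% and 1.32% with TAMo. The share of mitochondrial transcripts is also read as a sign of RNA and cell quality, and its part in the other differences was not tested. With every library rescaled to the same sum without these transcripts, 3954 genes were higher with TAN and 5351 with TAMo. Of 40 nuclear genes of the respiratory chain, 38 were higher with TAN and 1 with TAMo, with a smaller median of 0.53. Uqcrq of complex III (1.48) and Cox4i1 of complex IV (1.32) were among the largest.

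The machinery that makes ribosomes and removes proteins was also higher with TAN, by less. Of 75 genes of cytosolic ribosomal proteins, 68 were higher with TAN, 1 with TAMo and 6 were not called, with a median of 0.67. Under quantile normalisation, which forces all libraries to the same distribution, 53 were higher with TAN and 10 with TAMo. Rpl3 was at 3524 and 3533 FPKM with TAN and 1361 and 1443 FPKM with TAMo. Rplp0, the exception, was at 4124 and 4081 FPKM with TAN and 6013 and 5893 FPKM with TAMo. Ribosomal protein genes have many processed copies, so their single values are uncertain. Of 45 ribosome biogenesis genes, 35 were higher with TAN and 6 with TAMo (median 0.57). Nop56, a core protein of small nucleolar particles, was at 958 and 952 FPKM with TAN and 227 and 223 FPKM with TAMo, whereas Utp20 was higher with TAMo (-1.23). Of 31 proteasome genes, 30 were higher with TAN (median 0.77). The remaining one, Psmd8, differed by -0.08 and was no longer called under trimmed mean scaling or without TAMo replicate 1 or either TAN library.

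Lipid and amino acid synthesis showed the same side with larger differences. Of 25 genes of cholesterol synthesis and uptake, 24 were tested and all 24 were higher with TAN, 21 of them by at least 1, with a median of 1.89. Acat2, an acetyl-CoA acetyltransferase, was at 40.8 and 41.7 FPKM with TAN and 4.51 and 3.58 FPKM with TAMo. The regulator of the pathway, Srebf2, differed least (0.28 ± 0.028). Fads2, a fatty acid desaturase, was at 48.2 and 47.2 FPKM with TAN and 0.363 and 0.446 FPKM with TAMo, and Scd1, another desaturase, at 39.3 and 39.9 FPKM and 0.736 and 0.595 FPKM. In the list of amino acid starvation and ATF4 targets, 24 of 34 tested members were higher with TAN and 8 with TAMo (median 1.28). Phgdh, the first enzyme of serine synthesis, was the most abundant of the 12 largest on the TAN side, at 523 and 519 FPKM with TAN and 17.9 and 17.8 FPKM with TAMo. Asns, asparagine synthetase, was at 79.6 and 80.3 FPKM with TAN and 4.47 and 5.103 FPKM with TAMo. Against the majority, Sesn2 (-2.63) and Ddit4 (-2.19), inhibitors of mTORC1 signalling, were higher with TAMo. Atf4 itself was nearly level, at 422 and 425 FPKM with TAN and 457 and 445 FPKM with TAMo.

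Other stress and metabolic lists were divided. Among heat shock and unfolded protein response genes, 29 were tested: 19 were higher with TAN, such as the chaperone component Sdf2l1 (2.63), and 9 with TAMo, such as Edem1 of endoplasmic reticulum degradation (-1.97). Of 17 tested NRF2 and iron genes, 12 were higher with TAN, among them Tkt (2.10) of the pentose phosphate pathway and Prdx1 (1.96), a peroxiredoxin. The iron importer Tfrc was the 1 member higher with TAMo (-0.95). Lysosome and autophagy genes were mostly on the TAMo side, 26 of 35 against 6, with a median of -0.52. Ctsd, a lysosomal protease, was at 21.5 and 19.7 FPKM with TAN and 121 and 122 FPKM with TAMo, and Ulk1, the kinase that starts autophagy, at 12.2 and 11.8 FPKM and 49.03 and 49.4 FPKM. Tfeb, a transcription factor of lysosomal genes, went the other way (1.96). The sides of the glycolysis genes changed with the scaling: 6 of 20 were higher with TAN and 8 with TAMo (median -0.03), against 8 and 6 under trimmed mean scaling (median 0.05), 4 and 10 with equal sums without mitochondrial transcripts (median -0.13), and 4 and 13 under quantile normalisation (median -0.36), where 2 calls turned. Gapdh could not be compared, because its replicates were far apart (101 and 579 FPKM with TAN and 171 and 571 FPKM with TAMo).

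**Figure D4:**
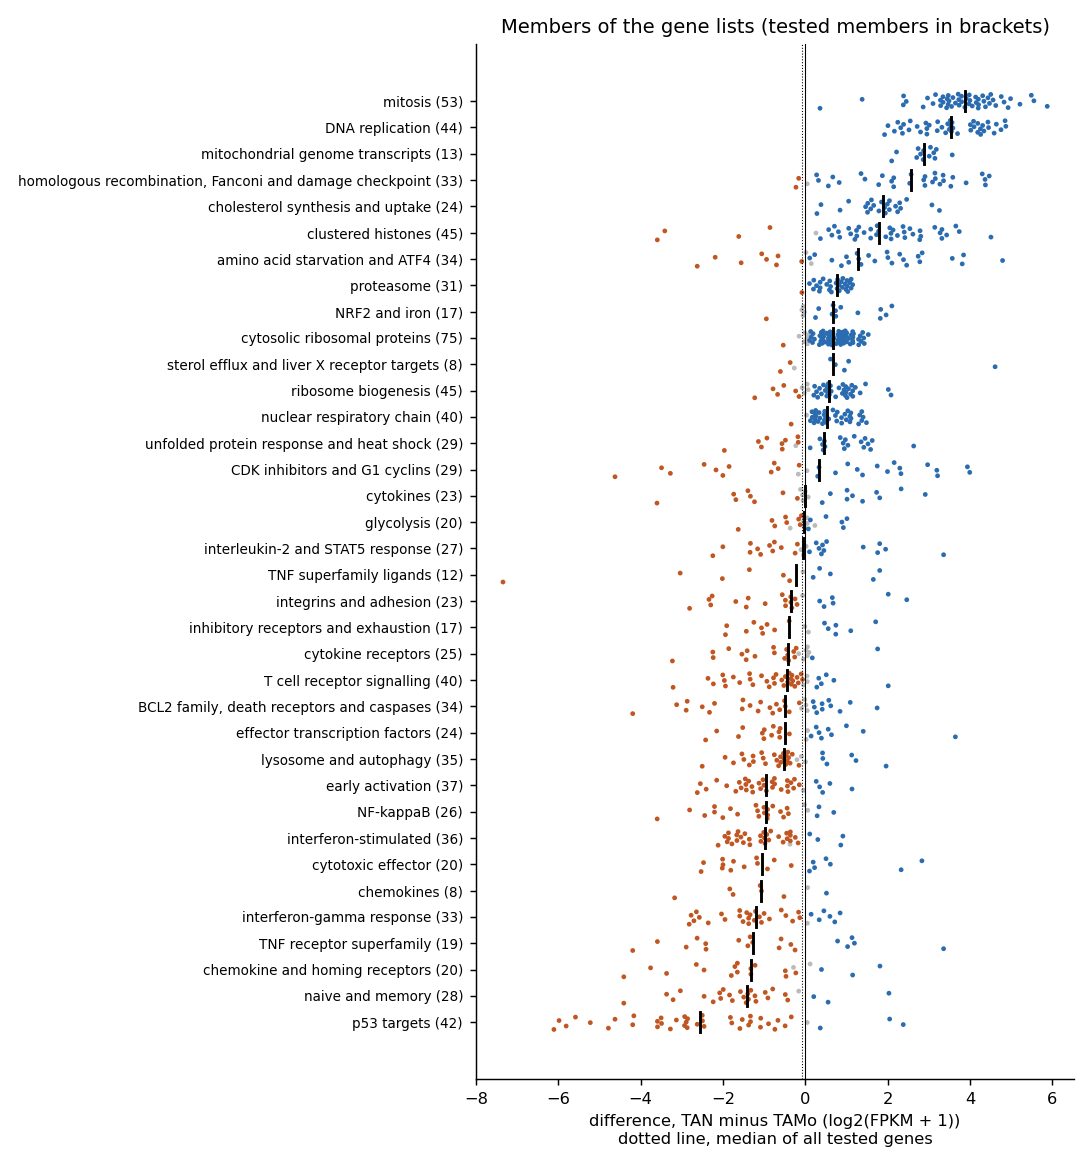
Difference of every tested member of each pathway and T cell list, TAN minus TAMo on the log2(FPKM + 1) scale, ordered by the median (black bar). Blue points are called higher with TAN, orange points higher with TAMo and grey points are not called, and medians run from 3.87 for mitosis to -2.57 for p53 targets.

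Killing and secretion genes did not move as one. Of 20 tested genes of the cytotoxic list (26 listed), 7 were higher with TAN and 13 with TAMo (median -1.04). Prf1, which encodes the pore former perforin, was at 177 and 175 FPKM with TAN, 24.2 and 23.6 FPKM with TAMo and 195 and 191 FPKM with vehicle. The difference was 2.83 ± 0.028 (limma, adjusted p = 4.47e-10). Gzmb, the main granzyme, was nearly level, at 4731 and 4681 FPKM with TAN and 4437 and 4348 FPKM with TAMo: its difference was 0.10 ± 0.03, was not called after rescaling without mitochondrial transcripts (adjusted p = 0.916) or without either TAN library (adjusted p = 0.140 and 0.0948), and turned to -0.73 under quantile normalisation. The granzymes Gzmc and Gzma were higher with TAMo, with Gzmc at 2.14 and 2.55 FPKM with TAN and 18.7 and 16.5 FPKM with TAMo and Gzma at 1.498 and 1.33 FPKM and 4.53 and 4.46 FPKM. Srgn, the proteoglycan that packs granules, was at 428 and 435 FPKM with TAN and 1758 and 1727 FPKM with TAMo. Serpinb9, the inhibitor that protects killers from their own granzyme B, was at 101 and 101 FPKM with TAN and 405 and 407 FPKM with TAMo. Granzyme genes are near-identical in part, and reads may be shared among Gzmc and its neighbours.

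Of 23 tested cytokine genes, 10 were higher with TAN and 8 with TAMo, beside 40.5% and 46.4% of all tested genes. Ifng, the gene of interferon-gamma, was at 1126 and 1147 FPKM with TAN, 225 and 227 FPKM with TAMo and 677 and 683 FPKM with vehicle, so that the TAN libraries were the highest and the TAMo libraries the lowest of the 6. The difference between the co-cultures was 2.33 ± 0.025 (limma, adjusted p = 5.96e-10). Tnf was at 30.3 and 29.4 FPKM with TAN and 19.8 and 18.8 FPKM with TAMo, and Lta, lymphotoxin alpha, at 159 and 156 FPKM and 42.8 and 45.9 FPKM. On the TAMo side were Il2, the T cell growth factor, at 0.682 and 0.3903 FPKM with TAN and 17.7 and 17.5 FPKM with TAMo, and Il21 (-1.74). Of 8 tested chemokines, 6 were higher with TAMo, led by Ccl5 (4.73 and 4.24 FPKM with TAN and 48.6 and 48.4 FPKM with TAMo), and 1 was higher with TAN, Xcl1 (0.51).

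Genes of naive and memory T cells were on the TAMo side in 24 of 28 tested cases, 19 of them by at least 1, with a median of -1.42, and 3 were on the TAN side. Ccr7, the receptor that guides T cells into lymph nodes, was among the most abundant transcripts of the TAMo libraries: it was at 176 and 171 FPKM with TAN, 3742 and 3679 FPKM with TAMo and 217 and 211 FPKM with vehicle. The transcription factors Bach2 (8.93 and 9.64 FPKM with TAN and 84.3 and 82.4 FPKM with TAMo), Lef1 (-2.06) and Tcf7 (-1.84) followed. Il7r, the interleukin-7 receptor, differed little (-0.43 ± 0.04). Id3, an inhibitor of E proteins, was an exception on the TAN side, at 26.5 and 24.8 FPKM with TAN and 6.03 and 5.07 FPKM with TAMo. In the 4 libraries this list took 0.162% and 0.161% of FPKM with TAN and 1.20% and 1.18% with TAMo.

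Effector transcription factors were divided, 9 of 24 higher with TAN and 13 with TAMo, as were all tested genes (40.5% and 46.4%). Irf4, a factor induced by receptor strength, was at 150.1 and 148 FPKM with TAN and 667 and 668 FPKM with TAMo. Id2 (-2.42), Bhlhe40 (-1.52) and Tbx21, the gene of T-bet (-1.01), were also higher with TAMo. Batf3 led the TAN side, at 158 and 151 FPKM with TAN and 12.4 and 10.6 FPKM with TAMo, and Prdm1, the gene of Blimp-1, differed by 0.39. Myc, which drives growth of activated T cells, was at 353 and 354 FPKM with TAN, 292 and 296 FPKM with TAMo and 423 and 425 FPKM with vehicle, a small difference of 0.26 ± 0.023.

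**Figure D5:**
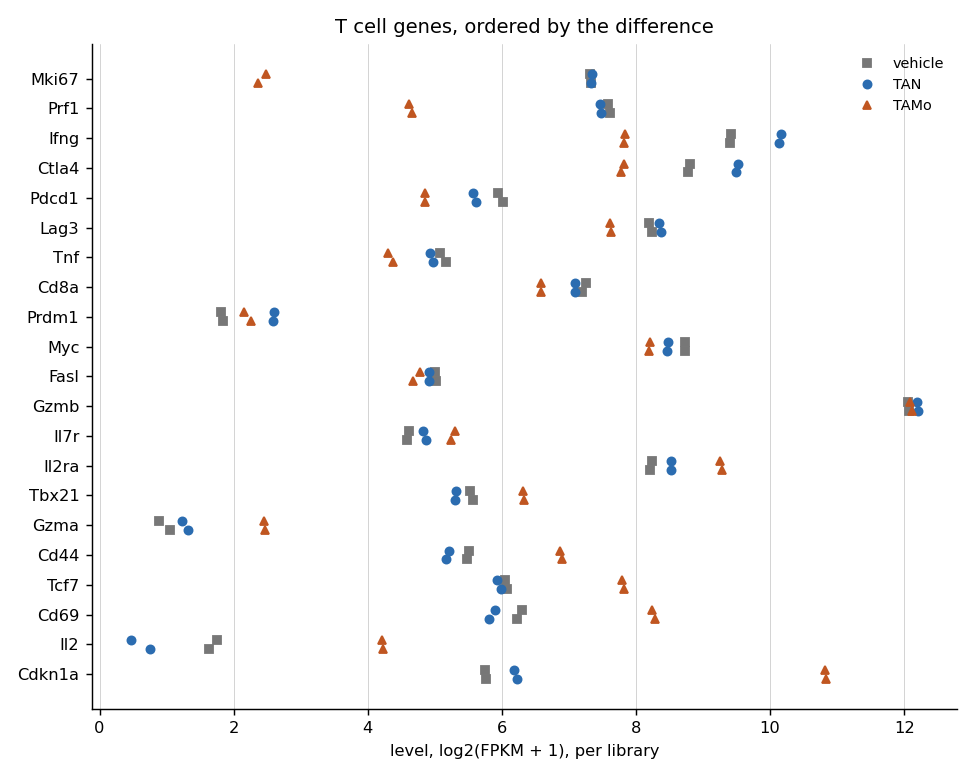
Level of 21 T cell genes in each of the 6 libraries, as log2(FPKM + 1), ordered by the difference between the co-cultures. Cdkn1a and Il2 lie at the TAMo end, Gzmb and Fasl near 0 difference, and Prf1, Ifng and Mki67 at the TAN end.

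Activation and signalling genes were mostly higher with TAMo. In the early activation list this held for 31 of 37 genes (median -0.95), with 5 higher with TAN. Cd69, an early surface marker, was at 55.04 and 58.7 FPKM with TAN and 311 and 302 FPKM with TAMo. Dusp5, a phosphatase of ERK, was at 60.3 and 59.9 FPKM with TAN and 363 and 352 FPKM with TAMo. Tnfrsf4, the receptor OX40, was the largest of those higher with TAN, at 374 and 379 FPKM with TAN and 172 and 171 FPKM with TAMo, opposite in side to its ligand Tnfsf4. Of 40 tested genes of T cell receptor signalling, 31 were higher with TAMo and 6 with TAN, with a median of -0.46. The co-receptors Cd6 (-2.23), Cd5 (-1.94) and Cd28 (-1.75) were on the TAMo side, and Cd2, an adhesion and costimulatory receptor, was on the TAN side at 208 and 215 FPKM against 48.2 and 55.3 FPKM.

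In the NF-kappaB list, 21 of 26 tested genes were higher with TAMo and 3 with TAN (median -0.96). Tnfaip3, the ubiquitin editor A20 that ends NF-kappaB signalling, was at 31.1 and 33.4 FPKM with TAN and 403 and 401 FPKM with TAMo. The inhibitor Nfkbia (-2.45) and the adhesion molecule Icam1 (-2.81) had the next largest differences. Interferon-stimulated genes were higher with TAMo in 31 of 36 tested cases (median -0.99) and higher with TAN in 4, although Ifng itself was higher with TAN. Zbp1, a nucleic acid sensor, was at 20.5 and 20.2 FPKM with TAN, 90.8 and 92.8 FPKM with TAMo and 39.2 and 42.6 FPKM with vehicle. In the interferon-gamma response list the count was 26 of 33 (median -1.21), against 6 higher with TAN. Gbp2, a guanylate-binding protein of host defence, was at 16.96 and 15.7 FPKM with TAN and 113 and 111 FPKM with TAMo. Cd274, the checkpoint ligand PD-L1, was at 10.04 and 9.57 FPKM with TAN and 72.4 and 73.6 FPKM with TAMo. Guanylate-binding protein genes have near-identical copies, so their single values are uncertain.

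The windows of Tnfaip3 (chr10:19015361-19015660, minus strand) and Gbp2 (chr3:142620413-142620712, plus strand) show these letters for the 2 lists, and were chosen after the values were seen. Capitals mark 2 matches to the consensus NF-kappaB site in Tnfaip3, which begin 125 and 12 bases before the start, and 1 interferon-stimulated response element (TTTC, any 2 bases, TTTC) in Gbp2, which begins 59 bases before it.
Tnfaip3: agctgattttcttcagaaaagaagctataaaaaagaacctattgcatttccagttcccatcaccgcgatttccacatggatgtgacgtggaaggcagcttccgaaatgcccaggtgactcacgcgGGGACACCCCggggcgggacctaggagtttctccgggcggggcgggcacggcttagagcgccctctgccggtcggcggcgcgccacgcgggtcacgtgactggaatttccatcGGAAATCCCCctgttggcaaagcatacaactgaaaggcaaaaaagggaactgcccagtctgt
Gbp2: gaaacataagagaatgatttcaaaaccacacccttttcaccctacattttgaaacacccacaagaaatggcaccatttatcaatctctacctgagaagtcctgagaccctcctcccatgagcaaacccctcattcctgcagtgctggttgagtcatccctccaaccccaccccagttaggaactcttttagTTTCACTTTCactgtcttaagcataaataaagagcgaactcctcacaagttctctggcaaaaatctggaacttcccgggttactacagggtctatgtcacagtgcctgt
An NF-kappaB site was found in 45.0% of the 20 genes of the NF-kappaB list with an entry, against 6.10% of all tested genes. An interferon-stimulated response element was found in 46.2% of the 26 genes with an entry in each interferon list, against 3.86% of all tested genes. Over all genes higher with TAMo by at least 1, these shares were 7.83% and 5.57%, and over those higher with TAN by at least 1 they were 5.98% and 3.99%. The share of a list describes its members and is not a result of the difference between the co-cultures.

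Lists of surface receptors and ligands were not alike. Of 19 tested members of the TNF receptor superfamily, 14 were higher with TAMo and 5 with TAN (median -1.28). Fas, the death receptor, was at 7.53 and 7.46 FPKM with TAN and 154 and 155 FPKM with TAMo, and Tnfrsf9, the costimulatory receptor 4-1BB, at 505 and 508 FPKM and 1242 and 1221 FPKM. Tnfrsf8, the gene of CD30, was at 16.7 and 17.4 FPKM with TAN and 0.795 and 0.728 FPKM with TAMo. Of 12 tested TNF ligands, 5 were higher with TAN and 6 with TAMo. Of 17 tested inhibitory receptors, 6 were higher with TAN and 9 with TAMo. Over all tested genes these shares were 40.5% and 46.4%. Ctla4 was at 722 and 735 FPKM with TAN and 219 and 226 FPKM with TAMo. Pdcd1 differed by 0.74 and Lag3 by 0.74, both also higher with TAN, and Tigit (-1.04) was higher with TAMo. Cytokine receptors were higher with TAMo in 17 of 25 cases and with TAN in 2. Il21r was at 59.2 and 56.8 FPKM with TAN and 553 and 551 FPKM with TAMo, and Il2rg, the common gamma chain, at 53.4 and 54.001 FPKM and 266 and 252 FPKM. The 2 exceptions were Il18r1 (1.75) and Ifnar2 (0.17). Ifnar2 was not called with equal sums without mitochondrial transcripts (limma, adjusted p = 0.246) or with no filter on low values (limma, adjusted p = 0.0537). Its difference was 0.10 without TAMo replicate 2, 0.19 without TAN replicate 1 and 0.14 without TAN replicate 2. In the interleukin-2 and STAT5 list, 12 of 27 were higher with TAN and 12 with TAMo.

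In the list of chemokine and homing receptors, which includes Ccr7, 15 of 20 tested genes were higher with TAMo and 3 with TAN (median -1.32). Cxcr6 was at 1.101 and 1.16 FPKM with TAN and 28.05 and 27.7 FPKM with TAMo, while Ccr6 (1.81) and Ccr4 (1.15) were higher with TAN. Integrins and adhesion genes were higher with TAMo in 16 of 23 cases and with TAN in 6, with Itgav at -2.34 and the receptor Slamf7 at -2.26. In the list of the BCL2 family, death receptors and caspases, 20 of 34 were higher with TAMo and 10 with TAN (median -0.50). Apaf1, the core of the apoptosome, was at 10.9 and 12.04 FPKM with TAN and 109 and 106 FPKM with TAMo. Both death-promoting Bcl2l11 (-2.33) and protective Mcl1 (-1.34) were on that side.

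Some genes lay on opposite sides of the vehicle level in the 2 co-cultures. Among genes that passed the test against vehicle in both, with opposite signs, those whose smaller change was the largest were taken. The 2 contrasts share the vehicle libraries, so only the values are given. Il17a, the gene of interleukin-17A, was at 6.88 and 6.29 FPKM with vehicle, 26.998 and 26.996 FPKM with TAN and 2.84 and 2.602 FPKM with TAMo. Tnfrsf8 was at 3.41 and 3.07 FPKM with vehicle, above the TAMo level and below the TAN level given above. Emp1, a membrane protein, was at 2.18 and 2.06 FPKM with vehicle, 5.84 and 6.99 FPKM with TAN and 0.293 and 0.393 FPKM with TAMo. In the other direction, Il2 was at 2.11 and 2.38 FPKM with vehicle, between the 2 co-cultures. Ccl4, a chemokine, was at 65.2 and 59.9 FPKM with vehicle, 36.1 and 36.8 FPKM with TAN and 125 and 126 FPKM with TAMo. Slfn2, a factor of T cell quiescence, was at 94.3 and 98.6 FPKM with vehicle, 51.1 and 49.4 FPKM with TAN and 175 and 176 FPKM with TAMo. Trbv12-1, a segment of the receptor beta chain family that OT-I cells use, was at 244 and 223 FPKM with vehicle, 133 and 117 FPKM with TAN and 1001 and 954 FPKM with TAMo. Separation of the groups followed from how these genes were picked and is not a result about them.

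A smaller set of genes was level between the co-cultures within tight bounds. The 95% interval of the difference lay within 0.25 of 0 for 948 genes. Among the most abundant of these were Gzmb, described above, Ldha, Pkm, Eno1 and Rpl4. Ldha, lactate dehydrogenase, was at 4453 and 4384 FPKM with TAN and 4361 and 4224 FPKM with TAMo (0.04, interval -0.03 to 0.12), and Eno1, an enolase, at 3568 and 3493 FPKM and 3382 and 3464 FPKM (0.04). Under quantile normalisation Ldha turned to -0.59, Eno1 to -0.32 and Rpl4 to -0.38, so that their level values hold for FPKM as deposited. Pkm differed by -0.16. The test called Ldha without TAMo replicate 1 (adjusted p = 0.0243), and Eno1 without TAMo replicate 2 (adjusted p = 0.0407), each with a difference of 0.06, and both under trimmed mean scaling, each with a difference of 0.12. Rpl4 was not called with equal sums without mitochondrial transcripts (limma, adjusted p = 0.881) or with no filter on low values (limma, adjusted p = 0.0699). Without TAN replicate 1 or without TAN replicate 2 it differed by 0.10.

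The labelled cell type was checked against its markers. T cell genes were abundant in all 4 libraries, with Cd8b1 at 206 and 205 FPKM with TAN and 200.2 and 198 FPKM with TAMo and Cd8a at 135 and 135 FPKM and 94.5 and 95.1 FPKM. Most markers of the added myeloid cells were too low to test. Of 30 neutrophil markers, 16 were at 0 in all 4 libraries, including S100a8, S100a9 and Retnlg, 29 were too low to test, and the summed level was 1.93 to 2.19 FPKM with TAN and 2.68 to 2.78 FPKM with TAMo. The 1 tested, Il1r2, was not called (0.05). Of 33 markers of monocytes and macrophages, 8 were tested, 5 were higher with TAMo and 3 with TAN. Their summed level was 214 to 218 FPKM with TAN, 210.4 to 211 FPKM with vehicle and 470.2 to 471 FPKM with TAMo, mostly from Plac8, which activated T cells also express (162 and 167 FPKM with TAN and 441 and 433 FPKM with TAMo). Among the markers too low to test, Lyz2 was at 0.182 FPKM or less, Csf1r at 0.0213 FPKM or less and C1qa at 0 in the 4 libraries. Cd14 and Vcan were at 2.84 and 3.17 FPKM and 2.64 and 2.46 FPKM with TAMo, and at 0.08504 and 0.0284 FPKM and 0.0869 and 0.0762 FPKM with TAN. Cd68 was at 2.65 and 1.82 FPKM with TAN and 3.63 and 7.05 FPKM with TAMo, and Ms4a6c at 3.12 and 2.85 FPKM and 4.88 and 6.28 FPKM. These 4 genes and Plac8 are the 5 that were higher with TAMo, of which Cd68 was not called without TAN replicate 2 (adjusted p = 0.0679). Ly6c2, which activated CD8+ T cells also express, was the largest of the 3 on the TAN side, at 22.1 and 23.4 FPKM with TAN and 4.39 and 3.64 FPKM with TAMo. The part of carried-over cells in the differences was not tested.

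Gene properties differed between the 2 sides. The median annotated exon length was 3561 bases for the genes higher with TAN by at least 1, 5343 bases for those higher with TAMo and 4415 bases for all tested genes. Median GC content was 50.7%, 49.1% and 49.6%. Expression was also spread over more genes with TAMo: 50% of all FPKM was held by 317 and 318 genes in the TAN libraries and by 521 and 513 genes in the TAMo libraries. The 10 most abundant genes took 12.5% and 12.6% with TAN and 7.43% and 7.503% with TAMo. The part of gene length in the differences was not tested.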

How the data were processed

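RNA of 6 libraries, 2 each of OT-I cells with vehicle, TAN and TAMo, was measured by sequencing of TruSeq libraries on a NovaSeq instrument, and groups were taken from the titles. The deposited values are FPKM per gene, which the authors computed. CASAVA, HISAT2 2.0.5, featureCounts 1.5.0-p3 and mm10 are named, with no role or order, per the submitters' processing notes. For the annotation, strand setting and gene lengths, the sources used here give nothing, so reads of overlapping genes and near-identical copies cannot be separated. FPKM is relative to all counted reads, so abundant transcripts move the values of others.

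The 10639 genes that reached 1 FPKM in 2 or more of the 4 TAN and TAMo libraries were tested on log2(FPKM + 1), with a pseudocount of 1 that understates changes of low genes. One limma model (R 4.3.3, limma 3.58.1, eBayes with trend) over all 6 libraries gave TAN minus TAMo, two-sided, with 3 residual and 4.07 prior degrees of freedom and Benjamini-Hochberg adjustment over all tested genes. The script was tested on simulated data. Folds are ratios of group means of FPKM. Low values fall on steps of whole reads, which gave the depth (up to 40 reads, tolerance 0.1): 97.9% to 98.9% were whole in genes with 1 transcript, but only 54.2% to 56.0% over all genes, so no count test was run. GENCODE M21 on GRCm38 gave coordinates and lengths for 25253 of 25638 genes, and promoter windows are from RefSeq GRCm38.p6.

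The comparison, its members and the gene lists were chosen with earlier results of these data known. Named genes are the 12 largest and, at 200 FPKM or more, the 10 largest per direction, up to 4 called members per list and direction with at least 5 FPKM, all of a list of core T cell genes, 6 per direction on opposite sides of vehicle, and the 6 most abundant level genes. The 12 largest were taken among called genes with at least 5 FPKM in the higher group and no overlap of the TAN and TAMo libraries. Outside this rule, Atf4, Atm, Bax, Bcl2l11, Cd14, Cd28, Cd8b1, Cox4i1, Gapdh, Il1r2, Lef1, Pttg1, Rb1, Rpl3, Rps12-ps3, Serpinb9, Srebf2, Tigar, Tigit, Tnfrsf9, Trp53, Vcan, mt-Co1 and mt-Nd6 were chosen after their values were seen. A few genes that the rule names are not reported here. Alternatives were other pseudocounts, filters, scalings, fits and left-out libraries.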

Additional observations from a re-analysis of the deposited data

How the results depend on the processing

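The counts of called genes stayed within 1.5 times the reported ones under all 14 alternatives. Calls higher with TAN and with TAMo were 4607 and 4564 after trimmed mean scaling, 3954 and 5351 after equal sums without mitochondrial transcripts, and 4352 and 4874 after quantile normalisation. The share of calls on the TAN side was 46.6% as reported and 42.5% to 50.2% under the alternatives. Leaving out 1 library at a time gave 4095 to 4253 genes higher with TAN, 4692 to 4800 higher with TAMo, 1516 to 1534 and 1595 to 1629 with a difference of at least 1, and 669 to 813 with an interval within 0.25 of 0. That last count was 948 as reported and moved to 5523 with no filter on low values, where many more low genes entered. With the replicate number as a block, 4321 and 4931 genes were called. Same-numbered libraries deviated together with a correlation of only 0.010 between TAN and TAMo, so the numbers were not taken to pair the samples. That correlation is over all genes, and single genes can differ from it. Gapdh was far lower in replicate 1 of both groups, whereas the gap of Rps12-ps3 was wide with TAMo and small with TAN. Of 285 named genes, 5 changed side, each under quantile normalisation: Gzmb (-0.73), Ldha (-0.59), Rpl4 (-0.38), Eno1 (-0.32) and Thy1 (-0.14), and the cause was not tested. Leaving out either TAN library took 7 of the 285 calls below the threshold, all of small differences. With 2 libraries per group and 3 residual degrees of freedom, small differences depend on the pooled spread, and the depth of TAMo replicate 1 is uncertain.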
